A study of Mus musculus with 6 samples.

Results

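The loci of 5 transcription factor genes, Tcf7, Lef1, Bach2, Satb1 and Myb, were examined in an ATAC-seq data set of mouse CD8+ T cells. ATAC-seq uses a transposase that inserts adapters into open chromatin, so that the read count of a region measures its accessibility. A region of the count matrix was taken as a member if it overlapped the span of 1 of the genes in mm10 RefSeq, or if the nearest end of any protein-coding gene belonged to 1 of them and lay within 50 kb. This gave 60 regions of 24605, of which 28 belonged to Bach2, 10 to Lef1, 9 to Tcf7, 7 to Satb1 and 6 to Myb. The rule for the regions uses position alone. All 60 passed the filter on low counts, and 38 overlapped a peak in each of the 6 libraries' peak lists.

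The CD8+ T cells had been isolated from wild-type mice (pancreas, spleen and lymph nodes, according to the labels), and the study asked how palmitate, a saturated fatty acid, affects them. The 3 palmitate libraries came from cells kept in complete T cell medium with 100 µM palmitate for 48 h, and the 3 control libraries from cells labelled control for the same time. The protocol text of the control samples also mentions the palmitate supplement, so the groups rest on the sample titles and the treatment label. Each library was made from 50000 cells purified by flow cytometry, the organs' cells are not told apart in the labels, and nothing says whether the numbered replicates were separate mice or cultures. The p-values below therefore rest on the spread among libraries only, and that spread may be technical.

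Stem-like and resting CD8+ T cells keep the capacity to renew and to produce effector cells, and the 5 factors are known for holding that state. TCF-1, encoded by Tcf7, and LEF-1 are HMG-box proteins that bind the same DNA letters and work with β-catenin or with Groucho/TLE corepressors. BACH2 is a basic leucine zipper repressor that occupies AP-1 sites and restrains effector genes, SATB1 organises chromatin in T cells, and c-MYB supports the renewal of stem-like cells.

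RefSeq promoter windows (250 bases before an annotated start, GRCm38.p6, the assembly of mm10) were at hand for all 5 genes, 13 windows in all, although not for the outer starts of Bach2 and Tcf7. The 4 below are shown because they contrast gene starts that lie at an accessible region with one that does not. The Myb window is at the gene's outer start, and 166 of its 250 bases lie in an accessible region. The first Satb1 start has 60 bases in such a region. The outer start of Lef1 has no region or peak, whereas the window of its inner start has 238 bases in the region 2.1 kb into the gene. Capitals mark the GC box letters GGGCGG on either strand, the binding letters of SP/KLF factors, and overlapping matches run together.
Myb, outer start, chr10:21160985-21161234, minus strand: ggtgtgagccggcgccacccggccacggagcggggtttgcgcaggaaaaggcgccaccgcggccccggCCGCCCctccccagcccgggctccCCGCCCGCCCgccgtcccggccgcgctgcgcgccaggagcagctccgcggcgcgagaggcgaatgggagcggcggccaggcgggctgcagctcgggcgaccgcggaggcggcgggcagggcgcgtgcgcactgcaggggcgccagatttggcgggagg
Satb1, outer start, chr17:51833291-51833540, minus strand: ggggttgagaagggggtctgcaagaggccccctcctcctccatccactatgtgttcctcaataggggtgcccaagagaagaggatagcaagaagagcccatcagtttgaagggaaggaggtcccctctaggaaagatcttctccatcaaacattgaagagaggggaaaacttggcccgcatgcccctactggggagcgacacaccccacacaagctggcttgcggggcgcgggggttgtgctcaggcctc
Lef1, outer start, chr3:131110047-131110296, plus strand: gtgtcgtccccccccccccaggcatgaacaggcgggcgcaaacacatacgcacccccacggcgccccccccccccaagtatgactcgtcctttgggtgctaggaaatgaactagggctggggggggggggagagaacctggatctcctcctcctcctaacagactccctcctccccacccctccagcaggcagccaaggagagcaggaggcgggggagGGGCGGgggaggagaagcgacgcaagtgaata
Lef1, inner start, chr3:131112541-131112790, plus strand: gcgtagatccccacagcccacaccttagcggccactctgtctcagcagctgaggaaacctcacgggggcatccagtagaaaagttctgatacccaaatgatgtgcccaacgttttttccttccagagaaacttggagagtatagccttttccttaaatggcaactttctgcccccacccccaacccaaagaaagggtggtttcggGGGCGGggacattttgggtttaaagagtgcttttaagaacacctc

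GC boxes numbered 3 in the Myb window, 1 in each Lef1 window and 0 in the Satb1 window, and 32.7% of 32851 mouse windows of this length held at least 1. The GC content was 81.2% for Myb, 58.0% for Satb1, 66.4% for the outer and 50.8% for the inner Lef1 start, against a median of 52.4% over all windows. The Satb1 values are those of the printed outer window. Another Satb1 start lies in the same accessible region, and its window (chr17:51832648-51832897, not printed) had all 250 bases in it, 3 GC boxes and 80.8% GC. The letters CTTTGAT, which TCF-1 and LEF-1 bind, were in none of the 13 windows on either strand and in 3.21% of all windows. The AP-1 letters TGANTCA that BACH2 also reads were in none of the 13 and in 6.75% of all, and the RUNX letters TGTGGTT in none and in 4.4%. The ETS letters CCGGAAG were in 2 of the 13 windows, an inner start of Bach2 and an inner start of Tcf7, and in 6.91% of all. A match describes letters only, and its absence covers only these windows.

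The libraries held between 2219136 and 3089230 counts in regions, and the biological coefficient of variation was 0.0659. Control 2 stood apart from the other control libraries: its counts differed from theirs by 2.03 and 2.05 times the counting variance over all regions, and by 3.49 and 3.3 times over the 60, whereas every other pair within a group lay at 1.19 to 1.48 and 1.19 to 1.93. Results are therefore also given without it where that changes the call. The CD8 label was checked against marker genes: all 7 CD8 T cell markers had a gene-end region, with a summed 314 to 351 normalised counts (CPM, reads scaled to a common library size) in control and 309 to 364 in palmitate. Of other cell types, 1 of 3 CD4 T cell genes had one (Zbtb7b, 34.9 to 51.4 and 46.5 to 73.4 CPM, with none at Cd4 or Foxp3), 1 of 8 B cell genes (Ebf1, 9.32 to 15.3 and 11.1 to 22.4) and 3 of 8 myeloid genes (28.3 to 37.7 and 36.0 to 42.2). None of 4 NK cell genes, 1 of 4 erythroid genes (Klf1, 37.9 to 42.7 and 39.4 to 39.9) and 1 of 6 pancreas genes (Cela1, 35.4 to 44.4 and 28.9 to 42.6) had one. The CD8 level is a sum over 7 genes and the myeloid level over 3, while Zbtb7b, Ebf1, Klf1 and Cela1 are single genes. Levels are therefore not comparable between cell types, and the check rests on which genes had a region. The part of the Zbtb7b, B cell and myeloid values in the results below was not tested.

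Of the 60 regions, 4 were more accessible in palmitate, 7 were less accessible and 49 did not pass the test (edgeR quasi-likelihood F-test on all regions, Benjamini-Hochberg adjusted p under 0.05). Over all 24316 regions tested 24.6% passed, 11.9% higher and 12.7% lower. The 11 of 60 were not tested against this share, and with so few regions no difference from it is read. In bulk libraries a shift in the mix of cells and a change within cells cannot be told apart. The median log2 fold change, palmitate over control, was -0.03 for the 60 and -0.05 for all regions. In 17 of the 60 the 3 palmitate values lay all above or all below the 3 control values, and in 38.9% of all regions. By place, 43 of the 60 lay inside the genes away from their ends, of which 2 were higher and 6 lower, against 4.3% and 19.6% of all regions inside genes (23.9% in either direction). Of 12 outside the genes 1 was higher and 1 lower, against 2.67% and 18.4% of intergenic regions (21.0%). The DESeq2 Wald test called 2 higher and 2 lower, with 12.8% of all regions passing, 7.76% higher and 5.08% lower. Without control 2, edgeR called 6 higher and 7 lower, with 25.2% of all regions passing, 11.4% higher and 13.9% lower. Bach2 held 9 of the 11 called regions, 3 higher and 6 lower, Tcf7 held 1 higher, Lef1 1 lower, and Satb1 and Myb none.

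The fold changes in this data set went with the strength of a region. Regions at gene ends, with a median count of 128, lay on the higher side (median log2 fold change 0.14), and regions inside genes, with a median count of 35, on the lower side (-0.24). A second scaling with offsets that follow a smooth curve of region strength in each library, here called trended offsets, brings these medians to 0.05 and -0.03, and calls 5.94% of all regions. With it 2 of the 60 regions were higher and 4 lower, against 2.05% and 3.89% of all regions. Both values are therefore given for the called regions.

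**Figure D1:**
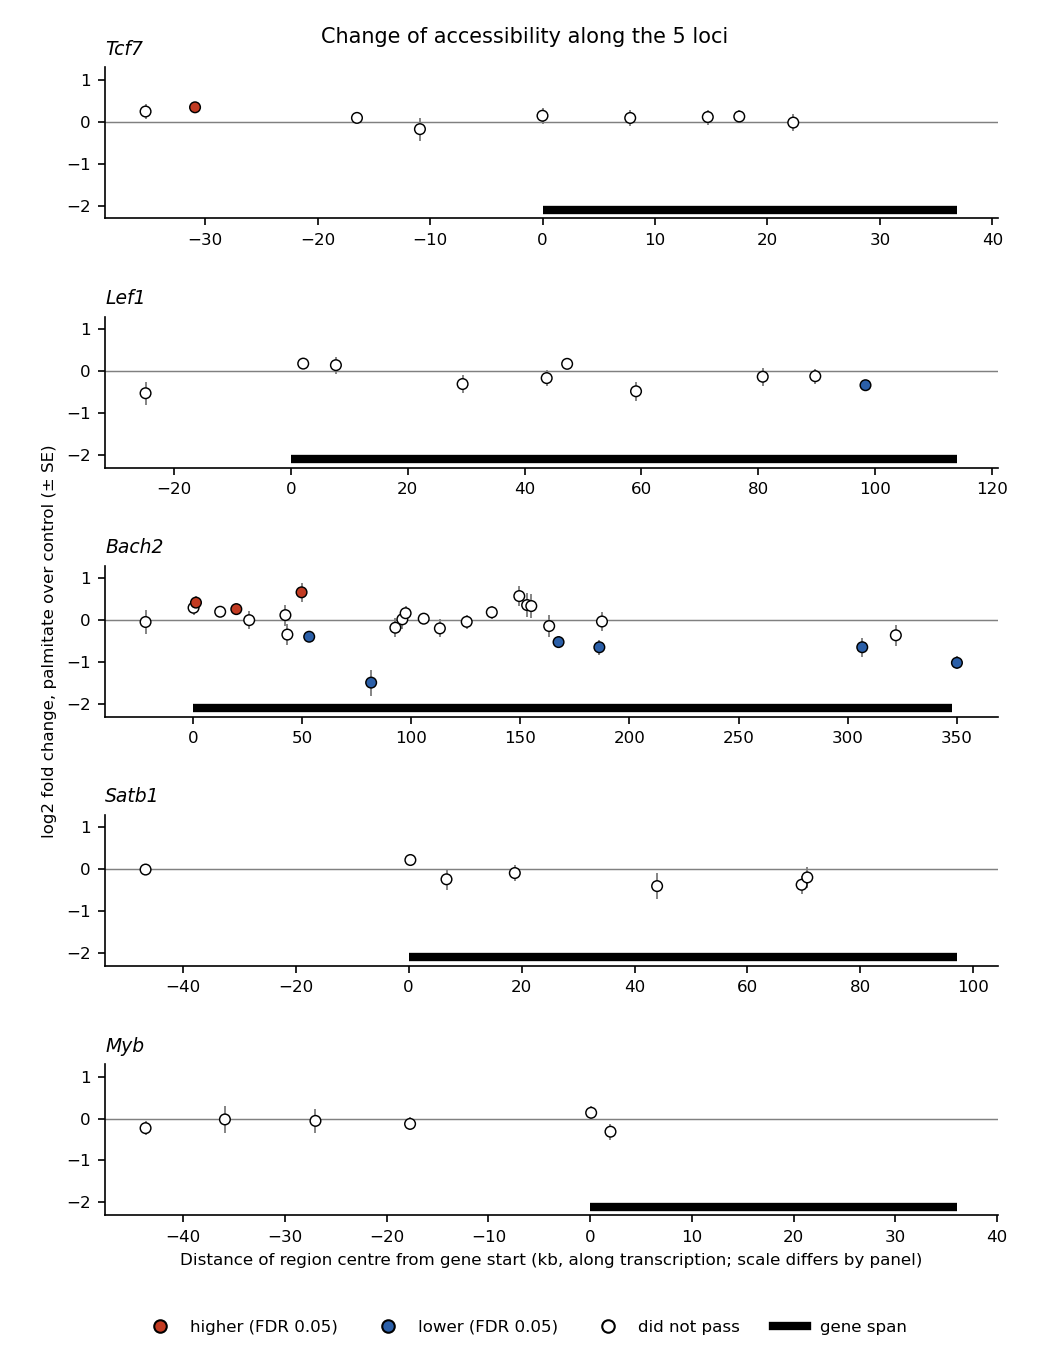
Log2 fold change of accessibility (palmitate over control, y axis, bars are standard errors) of each of the 60 regions against the distance of its centre from the gene start in kb along transcription (x axis, own scale per gene). Red regions were higher and blue regions lower at a false discovery rate of 0.05, white ones did not pass, and the black bar is the gene; at Bach2 the 3 red points lie in the first 50 kb and all 7 points beyond 160 kb lie below 0.

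At Bach2 the regions changed in both directions along the gene. The gene spans 347697 bp (chr4:32238413-32586109, plus strand). Regions are named by the distance of their centre from its start. The first 50 kb held 8 regions, of which 3 were higher and 7 had a positive log2 fold change, with a median of 0.23. From 85 to 160 kb there were 10 regions, none called, with a median of 0.10. Beyond 160 kb there were 7, all with a negative log2 fold change, 4 of them called lower, with a median of -0.52. Negative values were common: 6071 of 8694 tested regions inside genes had one, as did 4477 of 6217 intergenic regions. With trended offsets the 3 medians were 0.26, 0.25 and -0.44, with 1 higher, 1 higher and 2 lower calls. In the last stretch the regions at 163.2 and 187.4 kb then turned positive (0.15 and 0.16). In the first, the region at 12.4 kb turned negative (-0.03). The 3 stretches leave out 3 regions: those at 53.2 and 81.6 kb, both lower and nearer to the start than the middle stretch (-0.39 and -1.49), and one 21.8 kb before the gene (-0.04, not called). The order from higher to lower along the gene is thus not complete. These boundaries were drawn after the values were seen, and they describe the locus without a test.

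The region 350.1 kb from the start of Bach2, 2.03 kb past the far end of the gene (chr4:32588137-32588820), had the smallest p of the 60. It measured 77.1, 49.9 and 82.6 CPM in control 1 to 3 and 41.0, 34.7 and 27.6 CPM in palmitate 1 to 3. Every palmitate library lay below every control library, with control 2 the nearest to them. The means were 69.9 ± 17.5 and 34.4 ± 6.7 CPM (SD, n = 3 each). This was a change of -1.01 on the log2 scale (SE 0.15, edgeR adjusted p = 1.95e-05). The value was -1.09 with trended offsets (adjusted p = 4.5e-05) and -1.22 without control 2 (4.15e-09), and the region was called lower in all 13 alternative fits of all regions. The authors' peak scores there ran 491, 327 and 726 in control and 336, 248 and 214 in palmitate.

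The region 81.6 kb into Bach2 (chr4:32319707-32320294) fell further in the first scaling, though not with trended offsets, and is weak. Its raw counts were 28, 33 and 34 in control and 15, 9 and 9 in palmitate, or 12.2, 11.0 and 11.6 CPM against 5.91, 3.06 and 3.45 CPM. The palmitate values were all below the control values, and a peak was listed there in each control library and in no palmitate library. Peaks and counts come from the same reads, so the peaks are no separate support. How peaks were merged into regions is not given. A region with peaks in control libraries alone may be in the matrix only because it was high there, which favours a fall. The change on the log2 scale was -1.49 (SE 0.31, edgeR adjusted p = 0.000716), and -1.06 with trended offsets (adjusted p = 0.0365). This region was also called in all 13 alternative fits. The opposite pattern of peaks, listed in the 3 palmitate libraries and in no control library, was seen 155.0 kb into the gene, where the counts did not pass (log2 fold change 0.34, adjusted p = 0.395).

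The regions 167.5 kb and 186.2 kb into Bach2 were lower in palmitate. At 167.5 kb (chr4:32405606-32406280) the control libraries held 37.0, 36.6 and 38.1 CPM and the palmitate libraries 28.8, 26.5 and 22.6 CPM (log2 fold change -0.52, SE 0.15, edgeR adjusted p = 0.0103; trended -0.49, 0.0442). At 186.2 kb (chr4:32424391-32424798) the values were 30.5, 28.9 and 34.0 against 15.8, 25.5 and 18.0 CPM (log2 fold change -0.64, SE 0.18, adjusted p = 0.00827; trended -0.57, 0.0553). Neither pair of groups overlapped. The next region, at 306.7 kb, followed after a stretch of the gene from 187.4 kb on with no region. It was the weakest of the called lower ones by p, with 16.6 to 21.4 CPM in control and 8.05 to 14.2 in palmitate (-0.64, adjusted p = 0.0374; trended -0.44, 0.267).

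A further lower region lay 53.2 kb into Bach2 (chr4:32291407-32291885). It measured 44.9, 53.6 and 39.8 CPM in control and 38.2, 31.9 and 35.7 CPM in palmitate. The groups did not overlap, and control 2 was the highest library. The change on the log2 scale was -0.39 (SE 0.14, edgeR adjusted p = 0.0347), but -0.26 without control 2 (0.191), and with trended offsets it was -0.42 (0.0628).

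In the first 50 kb of Bach2, a boundary drawn after the values were seen, the 3 called regions were higher in palmitate. The next region, at 53.2 kb, was lower, as given above. At 19.8 kb (chr4:32257871-32258630), the strongest region of the 60 by CPM, control libraries held 124, 115 and 112 CPM and palmitate libraries 147, 134 and 140 CPM. The groups did not overlap, and the change on the log2 scale was 0.27 (SE 0.077, edgeR adjusted p = 0.0109), but with trended offsets 0.03 (0.84). At 49.7 kb (chr4:32288034-32288280) the values were 13.5, 8.65 and 11.2 against 17.7, 16.0 and 18.8 CPM (log2 fold change 0.67, SE 0.23, adjusted p = 0.0301; trended 0.89, 0.0172; without control 2, 0.51, 0.101). There a peak was listed in control 3 alone of the controls and in all 3 palmitate libraries.

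The third of the higher regions, centred 1.3 kb into the gene (chr4:32239317-32240046), counts as a gene-end region because its edge lies within 1 kb of the Bach2 start. It measured 25.7, 29.3 and 24.8 CPM in control and 37.4, 36.7 and 33.0 CPM in palmitate, without overlap (log2 fold change 0.42, SE 0.15, edgeR adjusted p = 0.0367; trended 0.45, 0.0658). The region at the start itself, 0.2 kb in (chr4:32238434-32238796), did not pass: 24.8, 30.3 and 30.3 CPM against 36.3, 42.1 and 26.8 CPM, with palmitate 3 inside the control range (0.30, adjusted p = 0.18). The strong region at 12.4 kb held 108 to 125 CPM in control and 126 to 151 in palmitate (0.20, adjusted p = 0.0688).

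**Figure D2:**
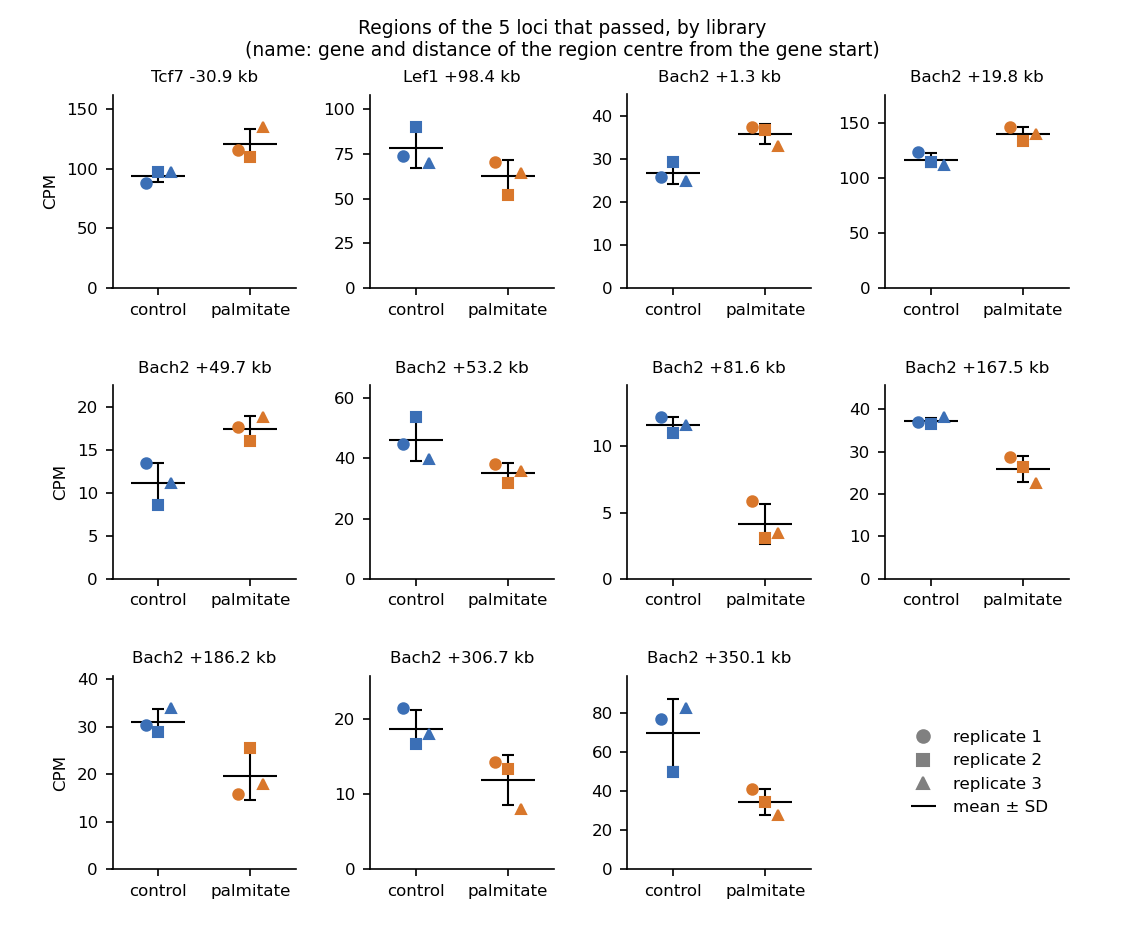
CPM (y axis, from 0) in each of the 3 control (blue) and 3 palmitate (orange) libraries at the 11 called regions, with the replicate number as the symbol and mean ± SD as bars. The groups are apart in 10 of the 11 panels and overlap at Lef1 +98.4 kb, where palmitate 1 (70.6) lies above control 3 (70.0). The 11 were picked by a test on these same libraries, which favours groups that lie apart, so that count is no separate evidence. Of all regions tested, 38.9% had groups apart.

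One Bach2 region that did not pass gained a call without control 2. At 149.5 kb (chr4:32387620-32388170) the controls held 11.3, 21.3 and 8.84 CPM and the palmitate libraries 19.7, 20.7 and 22.2 CPM. Control 2 lay within the palmitate range, 2 controls far below it. The log2 fold change was 0.58 (edgeR adjusted p = 0.071), 1.07 without control 2 (0.000638) and 0.76 with trended offsets (0.0456). This region is named for that shift, which was noticed after its values were seen.

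The Bach2 calls other than those at 350.1 and 81.6 kb were each lost in at least 1 of the fits with 1 library left out, which test with fewer samples. The call at 19.8 kb in Bach2 was lost without palmitate 1 (adjusted p = 0.0527). That at 167.5 kb was lost without control 3 (0.0505) or palmitate 3 (0.0749), and that at 186.2 kb without control 3 (0.0619), palmitate 1 (0.0648) or palmitate 3 (0.0539). The region at 49.7 kb lost it without control 2 (0.101), control 3 (0.061), palmitate 1 (0.0715) or palmitate 3 (0.11). The region at 53.2 kb lost it without control 1 (0.0542), control 2 (0.191), palmitate 2 (0.155) or palmitate 3 (0.0882), and the one at 306.7 kb without control 1 (0.132), control 3 (0.0867), palmitate 2 (0.0508) or palmitate 3 (0.226). At 1.3 kb the call was lost without any 1 library other than control 2 (0.0518 to 0.107). All of these edgeR fits kept the direction. Over them the log2 fold change ran from 0.39 to 0.50 at 1.3 kb, from 0.24 to 0.31 at 19.8 kb, from 0.51 to 0.81 at 49.7 kb and from -0.47 to -0.26 at 53.2 kb. It ran from -0.59 to -0.43 at 167.5 kb, from -0.88 to -0.50 at 186.2 kb and from -0.78 to -0.43 at 306.7 kb.

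Whether the regions of 1 gene changed unequally was tested for every gene with several regions (edgeR diffSpliceDGE, added after the data were seen), which compares each region with the rest of its gene. Bach2 ranked 4 of 4751 genes by p (adjusted p = 1.57e-09), where 35.5% of genes passed. A gene with many regions and counts gives this test more to work with, and Bach2 has 28 regions. With trended offsets, in limma-voom, Bach2 had an adjusted p of 1.74e-08 and rank 2, and 13.9% of genes passed. Leaving out each library in turn gave adjusted p values for Bach2 from 1.83e-13 to 4.89e-05, with ranks from 1 to 57, the last without palmitate 3. Leaving out the region past the gene end gave 1.59e-06 and rank 72. Relative to the rest of its locus, that region changed by -0.99 on the log2 scale (adjusted p = 1.02e-07). Lef1 did not pass (adjusted p = 0.0942, and 0.00539 without control 2, where 38.0% of genes passed), nor did Satb1 (0.377), Tcf7 (0.631) or Myb (0.694).

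At Tcf7 (chr11:52246527-52283383, minus strand) 1 of 9 regions was higher, none was lower, and the median log2 fold change was 0.12. The higher region lies 30.9 kb before the gene start (chr11:52313966-52314672), inside the noncoding gene Gm30217. It measured 88.0, 97.2 and 96.9 CPM in control and 116, 110 and 135 CPM in palmitate. All palmitate libraries were above all controls, and palmitate 3 was the highest. The means were 94.0 ± 5.2 and 121 ± 13.1 CPM (SD, n = 3 each). This was a change of 0.35 on the log2 scale (SE 0.087, edgeR adjusted p = 0.00339), but 0.14 with trended offsets (0.35). Without palmitate 3 it was 0.26 (0.0549).

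The most accessible region per kb of the 60 was also upstream of Tcf7, at 16.5 kb before the start (196 CPM per kb). It held 98.0, 92.2 and 104 CPM in control and 101, 97.2 and 117 CPM in palmitate, with overlapping groups (0.10, adjusted p = 0.44). At the start of the gene (chr11:52283273-52283493) the values were 20.9, 21.0 and 17.7 against 18.1, 23.4 and 24.2 CPM, also overlapping (0.15, adjusted p = 0.6). The 4 regions inside Tcf7, from 7.8 to 22.3 kb, had log2 fold changes from -0.01 to 0.13.

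At Lef1 (chr3:131110297-131224357, plus strand) 1 of 10 regions was lower and none higher, with a median log2 fold change of -0.15. The lower one, 98.4 kb into the gene (chr3:131208306-131209167), held 74.1, 90.2 and 70.0 CPM in control and 70.6, 52.3 and 64.4 CPM in palmitate. Its groups overlapped, with control 2 highest and palmitate 2 lowest. The change on the log2 scale was -0.33 (SE 0.11, edgeR adjusted p = 0.0272), -0.49 with trended offsets (0.00952) and -0.21 without control 2 (0.186). It also lost its call without palmitate 2 (-0.21, 0.22) or palmitate 3 (-0.36, 0.0651).

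The inner Lef1 start whose letters are printed above lies just past the edge of the region at 2.1 kb (chr3:131112017-131112778). That region measured 52.7, 56.6 and 55.8 CPM in control and 66.2, 61.2 and 60.2 CPM in palmitate. The groups did not overlap, but the log2 fold change of 0.18 did not pass (edgeR adjusted p = 0.221). Control 2 was the highest control library in 8 of the 10 Lef1 regions, against 36.8% of all regions and 30 of the 60. Without it the region at 47.3 kb came out higher (0.40, adjusted p = 0.0206, against 0.17 and 0.361 with it) and the region at 59.1 kb lower (-0.64, 0.0274, against -0.48 and 0.111).

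No region passed at Satb1 (chr17:51736187-51833290, minus strand; 7 regions, median log2 fold change -0.19) or at Myb (chr10:21124930-21160984, minus strand; 6 regions, -0.09). DESeq2 and limma-voom also called none of these 13 regions, and none had an unadjusted edgeR p under 0.05. At both genes the region at the gene start had a positive log2 fold change and every other region a negative one. With trended offsets the signs were mixed, and the medians were 0.02 and 0.05. The Satb1 start region (chr17:51832613-51833350) held 36.6, 60.6 and 51.0 CPM in control and 67.0, 56.1 and 52.9 CPM in palmitate. These groups overlapped, with control 1 the lowest library (0.22, edgeR adjusted p = 0.226). Without control 2 the log2 fold change was 0.40 (0.0266), and without control 1 it was 0.07 (0.74).

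The region 46.6 kb before Satb1 held 51.4, 54.6 and 41.8 CPM in control and 50.1, 43.2 and 54.5 CPM in palmitate (-0.00, edgeR adjusted p = 0.986). The Myb start region (chr10:21160710-21161150) held 27.0, 26.6 and 25.8 against 33.9, 26.8 and 26.8 CPM, the latter raised in palmitate 1 alone (0.14, 0.568). In the region 17.7 kb before Myb, inside the noncoding gene Gm40608, the values were 30.9, 30.9 and 27.2 against 29.2, 24.8 and 27.6 CPM (-0.13, 0.589). The region 2.0 kb into Myb held 41.0, 23.3 and 29.2 CPM in control against 30.7, 22.8 and 20.7 CPM, a log2 fold change of -0.31 (adjusted p = 0.226) that became -0.49 without control 2 (0.0367).

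Summed over all regions of a locus, the total accessibility of Bach2 was 825, 831 and 814 CPM in control and 862, 789 and 782 CPM in palmitate, that of Tcf7 327, 356 and 342 against 379, 360 and 422. The palmitate values of Tcf7 were all above the controls on this scale, whereas those of Bach2 spanned them. With the library factors of the locus sums the Tcf7 groups overlapped: its regions away from the gene ends held 272, 296 and 288 CPM in control and 308, 283 and 337 CPM in palmitate. Lef1 held 287, 367 and 301 against 316, 279 and 313 CPM, Satb1 159, 196 and 167 against 193, 154 and 170, and Myb 151, 124 and 125 against 139, 111 and 117. Per kb of accessible sequence the level was highest at Tcf7 (107 CPM per kb), followed by Bach2 (59.5), Lef1 (56.5), Satb1 (50.0) and Myb (40.7).

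For a test by locus, counts were summed over the regions within 1 kb of each gene's own ends and, apart from them, over all its other regions, for every protein-coding gene. None of the 9 sums of the 5 genes passed in edgeR, and none in DESeq2 or limma-voom, although 4 had an unadjusted edgeR p under 0.05. Of all sums 26.5% passed, 12.5% higher and 14.1% lower. Other scalings gave calls: with trended offsets fitted to the sums 4 of the 9 were lower, the sums away from gene ends of Bach2 (-0.42, adjusted p = 1.32e-06), Lef1 (-0.35, 0.00307), Satb1 (-0.30, 0.0284) and Myb (-0.33, 0.0251). That fit called 12.6% of all sums, 4.6% higher and 7.96% lower. Total counts also gave 4 lower, with 24.5% of all sums called, 6.89% higher and 17.6% lower. These shares pool gene-end sums with sums away from gene ends, which differed in the first fit (3.36% and 30.6% lower). Shares by kind were not computed for the other scalings, so the 4 lower sums have no matched share here. The log2 fold changes of the sums away from gene ends were -0.12 at Bach2 (adjusted p = 0.108), -0.15 at Lef1 (0.15), -0.21 at Satb1 (0.0882), -0.26 at Myb (0.052) and 0.11 at Tcf7 (0.209), and the median of all such sums was -0.25, with 3.46% higher and 30.6% lower (34.1% in all). Those of the gene-end sums were 0.29 at Bach2 (0.052), 0.16 at Satb1 (0.415), 0.08 at Tcf7 (0.77) and 0.07 at Myb (0.773), with a median of 0.09 over all genes and 18.3% higher and 3.36% lower (21.7% in all). With the trended offsets of the single regions carried to the sums, which was added after the data were seen, the Bach2 gene-end sum passed (0.39, adjusted p = 0.0387) and no other did, against 5.63% of all sums, 2.27% higher and 3.36% lower. Without control 2, the Bach2 gene-end sum (0.35, 0.025) and the Myb sum away from the ends (-0.32, 0.0125) passed. The share of all sums called in that fit was not computed, and with all libraries it was 26.5%.

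**Figure D3:**
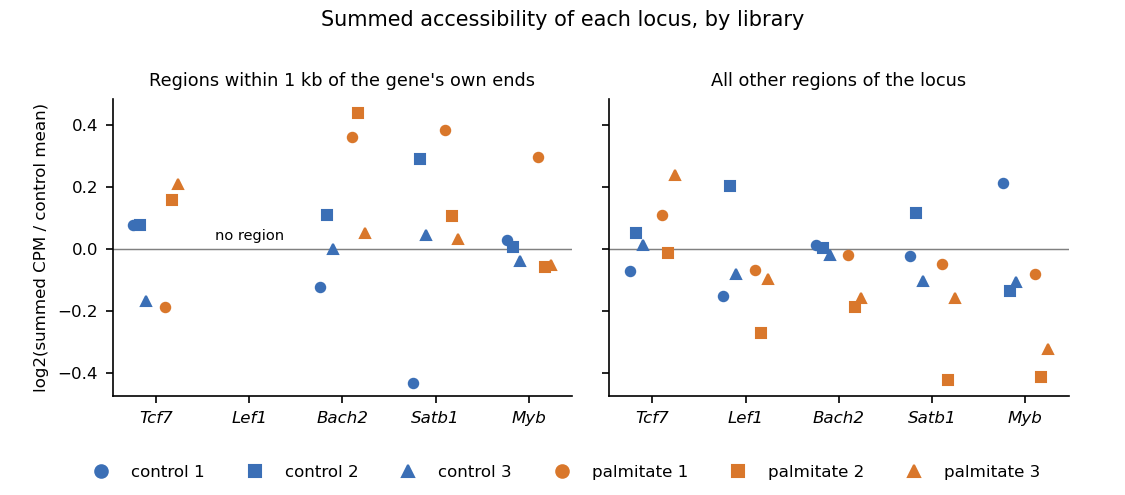
Summed CPM of each locus in each library, as log2 of its ratio to the control mean (y axis), for regions within 1 kb of the gene's own ends (left) and all other regions (right), with control in blue, palmitate in orange and the replicate as the symbol. Lef1 has no gene-end region; at Bach2 the gene-end values of palmitate 1 and 2 (62.8 and 66.3 CPM on the scale of the sums) lie above all controls (44.9 to 52.7) and palmitate 3 (50.6) among them.

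The peak lists told of the same loci by presence alone. The control lists held 22359, 26850 and 27122 peaks and the palmitate lists 20201, 21502 and 21011. Peaks at the 5 loci made up 0.243% ± 0.0165 of a control library's peaks and 0.268% ± 0.0181 of a palmitate library's (SD, n = 3 each, two-sided exact permutation test p = 0.2, where 3 against 3 libraries cannot go below 0.1). Bach2 had 22, 28 and 28 peaks in control and 27, 23 and 26 in palmitate, which is 0.102% against 0.121% of these unequal totals, without more Bach2 peaks in palmitate (exact p = 0.1, the smallest possible). After adjustment over the 6 shares tested both p were 0.4. When peaks scoring at or below the pooled median were left out, the difference for the 5 loci was 0.00819 percentage points in place of 0.0254 (exact p = 0.9). For Tcf7 the numbers were 9, 11 and 9 against 7, 9 and 9, and for Lef1 10, 14 and 13 against 9, 11 and 10. Of the peaks at the 5 loci, 0, 14 and 9 in the control and 5, 3 and 2 in the palmitate libraries overlapped no region of the matrix, and their read counts were not analysed here.

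The change of scaling moved the calls of the 5 loci as follows. Of the 11 regions called with TMM factors 5 were also called with trended offsets: the Bach2 regions at 350.1, 81.6, 167.5 and 49.7 kb and the Lef1 region at 98.4 kb. The region 149.5 kb into Bach2 was called with trended offsets and not with TMM. The 2 strong regions that were higher with TMM, at 19.8 kb in Bach2 and 30.9 kb before Tcf7, dropped to 0.03 and 0.14.

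**Figure D4:**
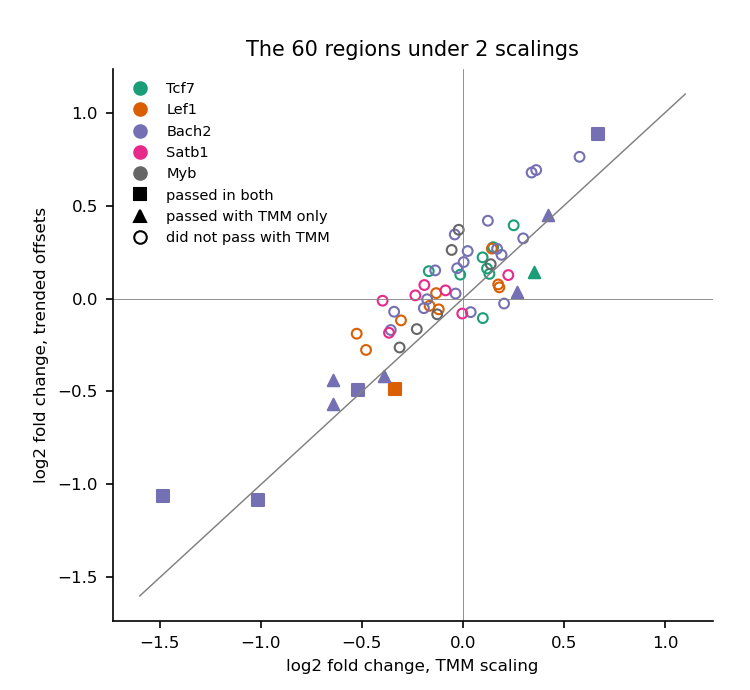
Log2 fold change of each of the 60 regions with TMM factors (x axis) and with trended offsets (y axis), coloured by gene, where squares passed in both, triangles with TMM alone and open circles not with TMM. The grey diagonal marks equal values; the triangles at 0.27 and 0.35 on the x axis, a Bach2 and a Tcf7 region, lie well below it, at 0.03 and 0.14.

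Genes of the same programme were described by their strongest gene-end region, with 25.0% of all gene-end regions higher and 2.47% lower (27.5% in all). These shares, and the median of all gene ends, include weaker regions, and the fold changes went with strength. They are therefore not a matched comparison for the strongest regions, for which no share was computed. Of 26 other genes of stem-like and quiescent T cells 21 had such a region: 7 were higher, none was lower, and the median log2 fold change was 0.20, against 0.14 for all gene ends. The 3 with the smallest p were Klf2, which keeps T cells resting and recirculating (171 ± 12.6 to 237 ± 4.37 CPM, 0.48, edgeR adjusted p = 1.19e-05), and the antiproliferative genes Btg2 (119 ± 4.99 to 168 ± 10.5 CPM, 0.50, 2.02e-05) and Btg1 (214 ± 8.07 to 280 ± 16.1 CPM, 0.39, 5.66e-05). With trended offsets the median was 0.06, and Btg2 alone passed (0.26, 0.0238). Klf2 was at 0.19 (0.0726) and Btg1 at 0.08 (0.437). The gene ends of Il7r, the receptor for the survival cytokine IL-7, and of Ccr7, a lymph node homing receptor, did not pass (-0.36, adjusted p = 0.185, and 0.24, 0.0691).

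Of 18 cofactors and partners of the 5 factors 16 had a gene-end region, of which 9 were higher and none lower (median 0.28). The corepressor gene Tle4 rose from 296 ± 16.5 to 411 ± 4.08 CPM (SD, n = 3 each, 0.47, edgeR adjusted p = 2.39e-06). Gsk3b, the kinase that marks β-catenin for degradation, rose from 499 ± 22.9 to 667 ± 9.4 CPM (0.42, 3.58e-06), and Tle1 from 156 ± 13.4 to 198 ± 8.41 CPM (0.35, 0.000703). With trended offsets none of the 16 passed, and the median was 0.05, the value for all gene ends too. Tle4 was at 0.12 (0.171), Gsk3b at 0.02 (0.813) and Tle1 at 0.08 (0.495).

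Of 16 transcription factors of effector cells, the opposing fate, 10 had a gene-end region, of which 4 were higher and none lower (median 0.22). Junb and Jun are AP-1 subunits and Id2 is an inhibitor of E proteins. Junb rose from 114 ± 12.9 to 158 ± 10.9 CPM (0.48, edgeR adjusted p = 9.62e-05), Id2 from 76.9 ± 4.37 to 106 ± 11.0 CPM (0.45, 0.000519) and Jun from 182 ± 8.41 to 229 ± 29.7 CPM (0.33, 0.00171). With trended offsets the median was 0.03, and Junb alone passed (0.24, 0.0488). Id2 was at 0.27 (0.0743) and Jun at 0.04 (0.769). Gene ends of Tbx21 and Prdm1, which direct effector differentiation, did not pass (-0.25, adjusted p = 0.514, and 0.03, 0.905).

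Beside them, the 5 gene-end regions of the factors (2 of Bach2, 1 each of Tcf7, Satb1 and Myb, none of Lef1) had positive log2 fold changes from 0.14 to 0.42, and 1 of the 5 passed. Of all gene-end regions tested, 6752 of 9405 had a positive log2 fold change and 25.0% were called higher. Likeness was compared over 1214 genes with at least 3 regions and a mean total count at least that of the weakest of the 5 loci. Over the 6 libraries, the summed accessibility most like that of Tcf7 was that of Lrrc27 (Pearson r = 0.979) and Abcb1a (0.979). For Lef1 they were Pde4d (0.962) and Rreb1 (0.958), for Satb1 Zbtb38 (0.97) and Tiam1 (0.929), for Myb Cmah (0.919) and Slc16a10 (0.901), and for Bach2 Wipf1 (0.869) and Tbl1x (0.849). These are the highest values among all genes compared, over libraries that share their depth and control 2, and carry no test.

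The 50 kb limit placed the region 46.0 kb from Satb1 just inside (-0.00). Just outside were regions 52.5 kb from Lef1 (0.11, edgeR adjusted p = 0.738) and 58.3 kb from Bach2 (-0.66, 0.0236). The latter lies before the Bach2 start and was lower, unlike the higher regions called in the first 50 kb of the gene. Further out, regions 70.6 kb from Satb1 (0.65, 0.00602) and 83.7 kb from Lef1 (0.97, 0.0467) were higher. The other regions up to 100 kb away did not pass.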

How the data were processed

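ATAC-seq of 3 control and 3 palmitate libraries was analysed from the files the authors deposited. The raw counts are whole numbers per library in 24605 regions of mm10, as deposited by the authors and with no normalization. The peak lists deposited by the authors, 1 per library, carry a score from their peak calling, used as given to describe peaks. Per the submitters' processing notes, the tools were edgeR 3.40.2, MACS2 2.2.8, Picard 2.23.8, Bowtie2 2.5.1 and Trim Galore 0.6.10, with no order given. How reads were shifted to the transposase cut, how peaks were merged into regions and how reads were counted is not given in the sources used here. Every region was used with the coordinates of the matrix.

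Gene spans came from the RefSeq table of GRCm38.p6, and no genome sequence or exon annotation was used. The groups came from the sample titles. The members and the gene lists were chosen with earlier results of these data known. Counts were tested over all regions with edgeR 4.0.16 in R 4.3.3 (quasi-likelihood F-test, two-sided, TMM factors 0.953 to 1.05, filterByExpr, which left 24316 regions, Benjamini-Hochberg adjustment, false discovery rate 0.05). A standard error is the size of the log2 fold change over the square root of F, and CPM uses TMM library sizes. The same test ran on counts summed by gene. Regions named are all called ones (the lower Bach2 region with the largest p by range), the strongest at and away from each gene's ends, and others where the text says why; for gene lists, the 3 called genes with the smallest p, with a few others chosen after their values were seen.

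Alternatives were DESeq2 size factors, total counts, trended offsets (loess of log counts plus 0.5 on mean abundance, span 0.3), no count filter, the DESeq2 1.42.0 Wald test, limma-voom (limma 3.58.1), a block for the replicate number, each library left out, limits of 20 and 100 kb, regions in all 6 peak lists, and peaks above the median score. The test of unequal change within a gene, its alternatives, and trended offsets with libraries left out or taken from single regions to the sums were added after seeing the data. The tests were tried on simulated counts. The labels tie no libraries together by number: deviations of same-numbered libraries correlated at 0, -0.104 and -0.027, so the fit has no block.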

Additional observations from a re-analysis of the deposited data

How the results depend on the processing

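Of the 11 called regions 5 were called with trended offsets and 4 with the DESeq2 Wald test. Trended offsets gave 2 higher and 4 lower regions of the 60 and a median log2 fold change of 0.052, DESeq2 2 higher and 2 lower, and total counts 1 higher and a median of -0.15. Leaving out 1 library gave 1 to 6 higher, 2 to 7 lower, a median from -0.068 to 0.083, and 3 to 8 of the 11 called, the fewest without palmitate 3. With trended offsets the same gave 0 to 3 higher, 2 to 5 lower, a median from -0.0072 to 0.104 (0.095 without control 2, 0.059 without palmitate 3), and 2 to 7 of the 11. The Bach2 region at 19.8 kb then reached -0.01 without control 3 and -0.01 without palmitate 1 (-0.01279 and -0.00879). The region 350.1 kb from the Bach2 start was called in all of these, the one at 81.6 kb in all but 4 that combined trended offsets with a library left out. Of the locus sums, 4 were lower with total counts and 4 with trended offsets of the sums, 0 to 3 with 1 library left out. Of higher sums there was 1 with DESeq2 size factors, 1 with trended offsets of single regions and 0 to 1 with 1 library left out. Of the 47 gene ends of the lists 20 were called, 2 with trended offsets and 17 to 21 without 1 library. Of all 9405 gene-end regions 27.5% were called, and with trended offsets 225 were higher and 125 lower. The 47 are the strongest gene ends, so these are not matched shares. The difference in peak share, 0.0254 percentage points, ran from 0.016 to 0.0344 with 1 library left out and was 0.00819 among peaks above the median score. The cause of each shift was not tested. Libraries share only a number, and with the replicate block 4 regions were higher and 7 lower, as without it, and 1 locus sum was lower in place of 0. The alternatives not named here kept the counts of calls within 1.5 times and the median within the spread. Weak regions hold few reads (28 to 34 per control library at 81.6 kb in Bach2), and small changes there were not detectable at this depth.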
